A study of Mus musculus with 18 samples.

Results

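The comparison set the later against the early stage after a stroke in the mouse cortex: tissue taken 7d after middle cerebral artery occlusion (MCAO) against tissue taken 3d after it. Its samples were chosen by their titles and by the slide they shared, and came to 12 of the 18 samples of the series: 6 arrays, 3 of each stage, each read as an immunoprecipitated (IP) and a supernatant (Sup) sample. All animals were C57BL/6J mice of 10 weeks. In the 7d and 3d groups alike, the distal artery was closed for good and both carotid arteries were briefly closed after it, and the cortex around the infarct was taken. The model is thus a permanent infarct of a piece of cortex, and the tissue around it is a mixture of neurons, glia, vessel cells and cells that enter after injury. The 3 sham arrays lay on another slide, where group and slide cannot be told apart, and were not used in these comparisons.

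Circular RNAs (circRNAs) are closed rings made when the splicing machinery joins a downstream exon end to an upstream exon start. They have no free ends, so they resist RNase R and outlive most linear transcripts, and the brain holds more of them than most tissues. N6-methyladenosine (m6A) is a methyl mark set on adenosines by a METTL3 and METTL14 complex, removed by demethylases and bound by YTH reader proteins, and circRNAs can carry it. Here an antibody to m6A split the RNA of each sample, RNase R removed linear RNA, and the bound share (IP, Cy5) and the unbound share (Sup, Cy3) were hybridised together to 1 array. The m6A level of a circRNA was IP/(IP+Sup), in percent, and its expression was IP+Sup, on the log2 scale.

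The signals were dim. The median circRNA spot had an intensity of 44.5, 50 and 50 in the IP channel of 3d replicates 1, 2 and 3 and of 42, 45 and 44 on the 7d arrays, over a local background of 20 to 22. In the Sup channel it had 60.5, 69.5 and 78.5 at 3d and 56, 62 and 63 at 7d, over a background of 17 to 18. The number of circRNA probes well above background in both channels was 12054, 12281 and 11310 on the 3d arrays and 10718, 11310 and 11222 on the 7d arrays. The tests took in 11834 of 14236 circRNA probes, those whose IP and Sup signals both passed that mark on 3 or more of the 6 arrays, and left out 2402. The number of arrays limits the precision. The 3d arrays lay in row 1 of the slide, in columns 1, 2 and 3, and the 7d arrays in row 2, in columns 1, 2 and 4, so that slide row and stage cannot be told apart.

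In its background, 7d replicate 3 stood apart from the other arrays. On it, 3 spots of 15710 had a local background of up to 7567 in the IP and 4903 in the Sup channel, and the scanner software had marked all 3 as lying on non-uniform background. With every spot in the background model, as planned, the modelled background mean of this array was -75.4 in the IP and -50.8 in the Sup channel. With marked spots left out of the model and of the averages, the means were 2.2919 and 10.4. That model left out marked spots on all 6 arrays, 209 to 383 in each channel, and not these 3 alone. The planned model was kept for all main values. The counts, the array medians and the levels of the called circRNAs are given beside their values with marked spots left out, an alternative added after the data had been seen.

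The check of the tissue against its cells rested on a single gene of a marker list. Of 26 marker genes of neurons, glia, leukocytes and vessel cells, 1 had a probe among the 50 mRNA probes of the array, Mbp, the myelin basic protein of oligodendrocytes. Its probe gave an expression of 7.65, 7.48 and 7.38 at 3d and of 7.36, 7.48 and 8.22 at 7d, with 7.78 for 7d replicate 3 when marked spots were left out (exact permutation p = 0.8, two-sided). The stages overlapped for Mbp and, through 7d replicate 3 alone, for Chgb and Gabrg1, which were outside the list of 26. With marked spots left out, 7d replicate 3 fell from 8.06 to 7.27 for Chgb and from 8.08 to 7.35 for Gabrg1. These values lay below the lowest 3d values with all spots, 7.31 and 7.66. Apoe, also outside the list of 26, had 10.0615, 10.3181 and 10.466 at 3d and 10.0581, 10.0228 and 9.97976 at 7d. Its 7d arrays lay below its 3d arrays (exact permutation p = 0.1, two-sided), but 7d replicate 3 had 10.212 with marked spots left out. Linear RNA had been digested before labelling, and the part of cell type makeup in the results below was not tested.

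At 7d, more circRNAs had a higher than a lower m6A level, compared with 3d. A circRNA was called hyper- or hypomethylated when its level changed by more than 1.5-fold with P, before adjustment, under 0.05. By this rule 482 circRNAs were hypermethylated at 7d (4.07% of those tested) and 15 were hypomethylated (0.127%), so that 97% of the calls were hypermethylated. After Benjamini-Hochberg adjustment 432 and 11 remained past the threshold. The median fold of the hypermethylated circRNAs was 1.63 and that of the hypomethylated ones 1.58, and 465 of the 482 had all 3 arrays of 7d above all 3 of 3d. The calls were chosen on these same values, so this separation is no independent evidence. With marked spots left out, 394 were hyper- and 50 hypomethylated, of which 391 and 15 were called by both background models.

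This split moved with the scaling of the channels, and its direction turned with all 102 spike-in probes. It stood at 482 and 15 on the 10 spike-in probes that the deposited table had been scaled on, at 119 and 137 with each channel centered on its median circRNA (46.5% hypermethylated), at 56 and 153 with all 102 spike-in probes (26.8%), and at 27 and 226 with within-array loess (10.7%). The median log2 change of the level over all tested circRNAs was 0.19 on the 10 spike-in probes and -0.050 with all of them. Centering and loess set this median near 0 by construction, at -0.0045 and -0.012, so neither these values nor their splits bear on the direction. Leaving out marked spots as well, the same 3 scalings gave 185 and 181, 49 and 353, and 21 and 441. The deposited values gave 2900 and 252 (92% hypermethylated), with a median log2 change of 0.37, and 284 and 1304 once each channel was centered on its median circRNA (17.9%). Without the offset of the background model, and on the 10 spike-in probes, the counts were 1183 and 43, and 750 and 698 with marked spots left out (51.8% hypermethylated). Without any scaling of the channels, 143 and 26 were called and none passed the adjustment by limma, against 115 and 76 with marked spots left out, of which 54 and 69 passed it. The direction over all circRNAs therefore differed between the 10 and the full 102 spike-in probes, and the imbalance of the calls also depended on the background model. Before scaling, the log2 IP minus Sup signal of the 10 spike-in probes was 0.87, 0.83 and 0.67 on the 3d arrays and 0.72, 0.71 and 0.53 on the 7d arrays.

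**Figure D1:**
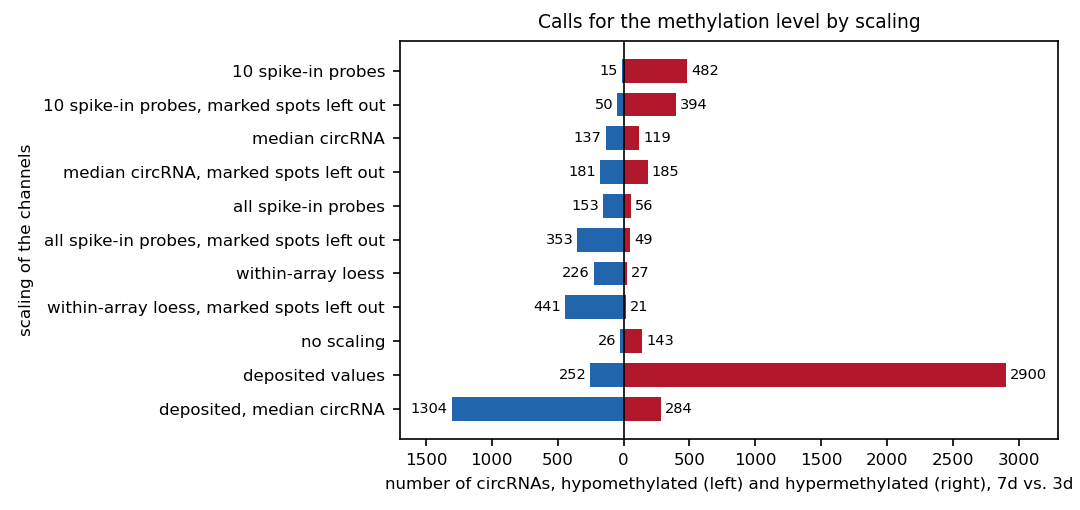
Number of circRNAs called hypomethylated (bars to the left) and hypermethylated (bars to the right) at 7d against 3d, for each scaling of the IP and Sup channels. The hypermethylated calls outnumber the hypomethylated ones on the 10 spike-in probes (482 against 15), but not with all spike-in probes (56 against 153). Within-array loess (27 against 226), like centering, sets the median change near 0 by construction, so its split does not bear on the direction.

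Single arrays also moved the counts. Without 3d replicate 3, 243 circRNAs were hyper- and 30 hypomethylated. On 3d replicate 3 the modelled mean Sup signal was 684, against 301 and 334 on 3d replicates 1 and 2 and 246 to 331 on the 7d arrays. Without 3d replicate 2 the counts were 604 and 23, and without 7d replicate 3 they were 363 and 35. Without 7d replicate 1, 494 and 17 were called and none passed the adjustment by limma. With the slide column as a block, 169 and 42 were called (80.1% hypermethylated); replicate 3 of each stage was alone in its column, so these counts rest on the 2 arrays of each stage in columns 1 and 2.

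The median circRNA of each array showed the same shift. Its level was 32.8%, 32.6% and 32.8% on the 3d arrays and 36.3%, 35.6% and 42.3% on the 7d arrays, where 7d replicate 3 had 38.0% with marked spots left out. All 3 arrays of 7d lay above all 3 of 3d. The group means were 38.1% ± 3.70 (SD, n = 3) at 7d and 32.7% ± 0.0767 (SD, n = 3) at 3d, a difference of 5.33 percentage points (exact permutation p = 0.1, two-sided, the smallest that 3 against 3 arrays allow). The difference was 3.93 points with marked spots left out and 9.73 points in the deposited values (exact permutation p = 0.1 for both). It was 3.204 points without 7d replicate 3 and -0.936 points with all spike-in probes. Each channel centered on its median circRNA gave 0.53 points, near 0 by construction. On the sham arrays of the other slide the median level was 34.0%, 33.9% and 33.2%. In the deposited values it was 39.3%, 36.9% and 30.4% there, 28.5%, 30.6% and 24.2% at 3d and 39.1%, 36.6% and 36.8% at 7d, so the place of sham beside the stages depended on the processing.

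**Figure D2:**
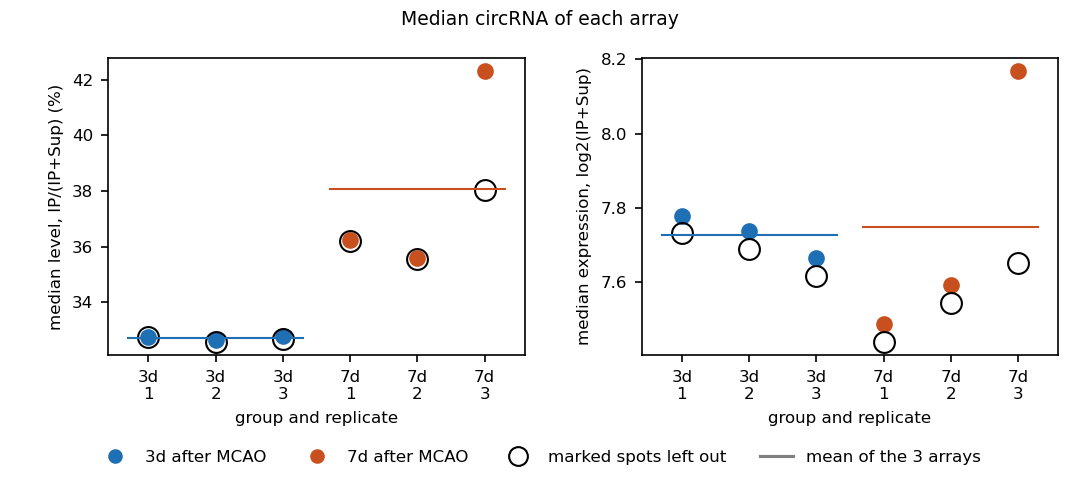
Median m6A level (left, percent) and median expression (right, log2) over the tested circRNAs on each array, with the mean of the 3 arrays of a group as a line and the values with marked spots left out as open circles. The median level is 32.6% to 32.8% at 3d and 35.6% to 42.3% at 7d, and the highest value falls to 38.0% with marked spots left out (with all spike-in probes the difference turns to -0.936 points).

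The calls for expression went the other way, with more circRNAs called lower than higher at 7d. By the same rule 959 circRNAs had lower expression at 7d (8.1% of those tested) and 80 had higher expression (0.676%), so that 92.3% of the calls were lower. After adjustment 465 and 10 remained. Over all tested circRNAs, called or not, 41.2% were lower and the median log2 change was 0.061, against 78.8% and -0.12 with marked spots left out. The median fold of the lower circRNAs was 1.80, and 834 of the 959 had all 3 arrays of 7d below all 3 of 3d. Here too the calls were chosen on the same values, so the separation is no independent evidence. In bulk cortex, fewer cells of a type and less RNA per cell cannot be told apart. With marked spots left out, 894 were lower and 108 higher, of which 747 and 77 were called by both background models.

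The counts of this split, too, moved with the scaling. They were 604 lower and 164 higher with all spike-in probes (78.6% lower), which kept the direction. Processed signals on all spike-in probes turned it, at 639 lower and 1142 higher. Quantile normalization gave 234 lower and 325 higher (41.9%). The deposited values gave 2958 lower and 263 higher, and 988 and 1245 once each channel was centered on its median circRNA (44.2% lower). Quantile normalization and centering set the median change near 0 by construction, so their splits do not bear on the direction. Centered on the median circRNA, the scanner values gave 722 lower and 86 higher, of which none passed the adjustment by limma. Without 3d replicate 3 the higher calls were 18 and the lower ones 643, and with the slide column as a block, which again rests on replicates 1 and 2, they were 12 and 778. The higher calls were 186 without 7d replicate 1, 151 without 3d replicate 1, 45 without 7d replicate 2 and 36 without 7d replicate 3.

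The median expression of an array did not separate the stages. It was 7.78, 7.74 and 7.67 at 3d and 7.49, 7.59 and 8.17 at 7d, where 7d replicate 3 had 7.65 with marked spots left out. The means were 7.75 ± 0.367 (SD, n = 3) at 7d and 7.73 ± 0.0569 (SD, n = 3) at 3d, and the difference of 0.021 turned to -0.13 with marked spots left out, and to -0.19 without 7d replicate 3 (exact permutation p = 1 for all spots and 0.2 with marked spots left out, two-sided). In the deposited values the difference was -0.32 (exact permutation p = 0.1, two-sided).

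Most hypermethylated circRNAs were also lower in expression. Of the 482 hypermethylated circRNAs, 427 also had lower expression and 0 had higher expression, beside 8.1% and 0.676% of all tested circRNAs. With marked spots left out, 271 of 394 hypermethylated circRNAs had lower expression, beside 7.55% of all tested circRNAs. Of the 15 hypomethylated circRNAs, 4 had higher and 1 had lower expression, against 29 and 2 of 50 with marked spots left out. Both measures are made from the same 2 channels, so they are not independent. The calls also lay among the bright circRNAs, ranked by mean expression. The brightest 2959 held 407 of the 482 hypermethylated, all 15 hypomethylated and 883 of the 959 lower circRNAs. The dimmest 2959 held 0 of each. The background model adds an offset of 50 to each channel, above the median net IP signal of 21.5 to 29.5. This offset shrinks the folds of dim circRNAs, so the lack of calls among them is partly built in. The printed levels of dim circRNAs also rest partly on it.

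Published lists name circRNAs of largest change for the same comparison. The 20 names led to 19 probes, of which 16 were tested. The names were joined to the probes by the numbers printed for them, so the list had been chosen on these arrays and its direction is no independent evidence. Of the 16 tested probes, 8 were hypermethylated and 4 hypomethylated here, 2 were not called, and 2 lacked an IP signal above background at 7d. The 8 had lower expression as well. Of the 12 calls for the level, 9 kept their direction and their call under every alternative, and those of Ptchd4 and Slc9a2 were lost with within-array loess under both background models. The call for Fam135a, measured on 2 arrays at 7d, was not counted as kept, since without either of them 1 is left and with the slide column as a block no spread can be estimated for it. The size of the increases varied: over the alternatives other than single arrays left out, the log2 change fell as low as 1.05 for Srebf2 (1.60 on all spots), 0.77 for Scn2a1 (1.48), 0.71 for Glra2 (1.25), 0.68 for Kat6a (1.15) and 0.73 for Uba6 (1.22), each with within-array loess, and 0.92 for Fam135a (1.70), with processed signals on all spike-in probes. Of the 12 calls for expression on the list, 9 were kept in this way, those of XLOC_027457 and Bmper were not, and that of Fam135a was again not counted. For expression with all spots, limma drew the spread of each probe toward a shared one. The standard error of the log2 change was 0.296 for Scn2a1 and 0.259 for Maml2. Their SDs over the 3 arrays of 3d were 0.973 and 0.369. With marked spots left out, the standard errors were 0.427 and 0.182. The small adjusted p-values of expression with all spots thus do not measure the spread of a single probe. Arrays are given below in the order of replicates 1, 2 and 3. Genes are the host genes of the circRNAs, and chromosomes and transcript types are those of the published lists.

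The hypermethylated circRNAs came from genes of several kinds, ion channels and transporters among them. Scn2a1 encodes a voltage-gated sodium channel of neurons. Its exonic circRNA (mmu_circRNA_33707, chromosome 2) had a level of 11.7%, 12.5% and 8.93% at 3d and of 31.2%, 27.6% and 33.1% at 7d, so that the groups did not overlap. The level was 2.80-fold higher at 7d, 30.6% ± 2.7672 (SD, n = 3) against 11.03% ± 1.867 (SD, n = 3; adjusted p = 0.0129), with 32.7% for 7d replicate 3 and a fold of 2.78 when marked spots were left out. Both shares fell, on the log2 scale: the IP signal fell by 1.27 and the Sup signal fell by 3.11. Expression was 11.8, 11.9 and 13.5 at 3d and 9.60, 9.90 and 9.48 at 7d, a 6.75-fold decrease (adjusted p = 3.66e-10; 6.41-fold and 0.00982 with marked spots left out), and 3d replicate 3 was the highest.

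Glra2 encodes an alpha subunit of the glycine receptor, a chloride channel. Its circRNA (mmu_circRNA_45965, exonic, chromosome X) had 15.95%, 14.6% and 9.92% at 3d and 34.6%, 25.9% and 34.8% at 7d, 2.381-fold higher (adjusted p = 0.0129; 32.1% for 7d replicate 3 and 2.319-fold with marked spots left out). Its expression was 5.14-fold lower at 7d (5.05-fold with marked spots left out). Slc9a2 encodes a sodium-proton exchanger, and 2 listed names (mmu_circRNA_19991 and mmu_circRNA_34924) led to 1 exonic probe of chromosome 1. Its level was 22.0%, 21.0% and 13.3% at 3d against 36.7%, 32.8% and 41.5% at 7d, 2.01-fold higher (adjusted p = 0.0142; 36.4% for 7d replicate 3 and 1.931-fold with marked spots left out), while its log2 change of 1.01 was 0.52 and not called with within-array loess. Its expression was 2.165-fold lower (2.4106-fold with marked spots left out). All 3 arrays of 7d were above all 3 of 3d for both circRNAs.

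Regulators of transcription and chromatin included the largest increase among circRNAs measured on all 6 arrays and well above background. Srebf2 encodes the transcription factor that drives the genes of cholesterol synthesis. Its circRNA (mmu_circRNA_28863, exonic, chromosome 15) had a level of 11.2%, 11.2% and 8.54% at 3d and of 31.5%, 24.8% and 37.7% at 7d, with 33.6% for 7d replicate 3 when marked spots were left out. The 7d arrays lay far above the 3d arrays, 31.3% ± 6.47 (SD, n = 3) against 10.3% ± 1.52 (SD, n = 3), a 3.02-fold increase (adjusted p = 0.0129) that was 2.91-fold with marked spots left out and 4.02-fold in the deposited values. On the log2 scale the IP signal fell by 1.45 and the Sup signal fell by 3.4397. Expression was 11.1, 11.4 and 12.4 at 3d and 8.34, 8.84 and 8.51 at 7d, an 8.28-fold decrease (adjusted p = 2.23e-12; 8.42-fold and 0.00443 with marked spots left out). Kat6a encodes a histone acetyltransferase. Its circRNA (mmu_circRNA_42640, exonic, chromosome 8) had 17.8%, 19.05% and 11.1% at 3d and 33.1%, 30.5% and 40.7% at 7d, 2.22-fold higher (adjusted p = 0.013; 38.8% for 7d replicate 3 and 2.18-fold with marked spots left out), with a 3.58-fold lower expression (3.65-fold with marked spots left out).

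Uba6 encodes an enzyme that activates ubiquitin. Its circRNA (mmu_circRNA_38904, exonic, chromosome 5) had a level of 21.4%, 20.003% and 9.73% at 3d and of 34.8%, 35.4% and 42.6% at 7d, 2.328-fold higher (adjusted p = 0.0202; 40.8% for 7d replicate 3 and 2.296-fold with marked spots left out). On 3d replicate 3 its level was lower and its expression, at 10.9, higher than on the other 3d arrays, at 8.93 and 9.06. The log2 change of its expression, -1.57 (adjusted p = 0.000352), was -0.95 without 3d replicate 3, and its 2.98-fold decrease was 3.19-fold and did not pass the adjustment with marked spots left out (adjusted p = 0.0589). Ptchd4 encodes a membrane protein with a patched domain. Its circRNA (mmu_circRNA_30501, exonic, chromosome 17) had 21.0%, 21.2% and 14.2% at 3d and 39.3%, 36.1% and 37.5% at 7d, 2.03-fold higher (adjusted p = 0.0129; 34.5% for 7d replicate 3 and 1.9806-fold with marked spots left out), while its log2 change of 1.02 was 0.57 and not called with within-array loess.

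The circRNA of Fam135a (mmu_circRNA_19765, exonic, chromosome 1) had a level of 7.66%, 10.1% and 8.72% at 3d and of 20.9% and 38.8% on 7d replicates 2 and 3, while the spot of 7d replicate 1 had been marked as an outlier and was left out. Both measured 7d arrays were above all 3d arrays, 3.25-fold (adjusted p = 0.0129), and 7d replicate 3 had 32.0% and the fold was 2.94 with marked spots left out. Its expression was 12.2, 11.8 and 13.1 at 3d and 8.84 and 8.30 at 7d, a 13.8-fold decrease (15.2-fold with marked spots left out). The 9th hypermethylated probe of the list, of Ola1, was not tested: its IP signal was not well above background on any 3d array.

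The 4 hypomethylated circRNAs of the list included 2 whose expression rose. Maml2 encodes a coactivator of Notch signalling. Its circRNA (mmu_circRNA_43775, exonic, chromosome 9) had a level of 18.5%, 21.4% and 15.9% at 3d and of 7.01%, 8.42% and 12.3% at 7d, with 9.29% for 7d replicate 3 when marked spots were left out. The groups did not overlap, and the level was 9.25% ± 2.762 (SD, n = 3) against 18.6% ± 2.7363 (SD, n = 3), 2.05-fold lower at 7d (adjusted p = 0.0146) and 2.253-fold with marked spots left out. Its expression was 8.66, 8.56 and 9.24 at 3d and 10.6, 10.3 and 10.2 at 7d, the largest increase taken by rule, 2.90-fold (adjusted p = 2.98e-05; 3.09-fold and 0.00463 with marked spots left out). The Sup signal rose by 1.69 and the IP signal by 0.50 on the log2 scale. Arhgap32 was grouped with the genes of channels, transporters and synapse. Its circRNA (mmu_circRNA_43940, exonic, chromosome 9) had 17.8%, 16.005% and 19.2% at 3d and 8.45%, 8.91% and 12.2% at 7d, 1.81-fold lower (adjusted p = 0.0129; 7.35% for 7d replicate 3 and 2.15-fold with marked spots left out). Its expression was 8.81, 8.84 and 8.24 at 3d and 9.63, 9.58 and 9.99 at 7d, a 2.15-fold increase (adjusted p = 0.00422; 2.26-fold and 0.0154 with marked spots left out).

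Anks1b encodes a scaffold protein of the postsynaptic density. Its circRNA (mmu_circRNA_017958, exonic, chromosome 10) had a level of 30.5%, 28.2% and 18.5% at 3d and of 12.6%, 14.1% and 12.9% at 7d, 1.90-fold lower (adjusted p = 0.0142; 12.1% for 7d replicate 3 and 1.945-fold with marked spots left out). All 3 arrays of 7d lay below all 3 of 3d. Its expression, 10.9 ± 0.168 (SD, n = 3) at 7d and 10.5 ± 0.601 (SD, n = 3) at 3d, was not called (adjusted p = 0.86), but its log2 change of 0.38 was 0.65 and called without 3d replicate 1, and 0.90 and called in the deposited values. The intronic circRNA of XLOC_027457 (mmu_circRNA_19555, chromosome X) had 14.1%, 15.2% and 11.8% at 3d and 9.35%, 7.96% and 8.05% at 7d, 1.62-fold lower in both background models (adjusted p = 0.0129), with no overlap of the groups. Its expression was 1.68-fold lower at 7d, a call that did not pass the adjustment (adjusted p = 0.119; 1.54-fold and 0.103 with marked spots left out) and whose log2 change turned from -0.74 to 0.11 with quantile normalization.

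**Figure D3:**
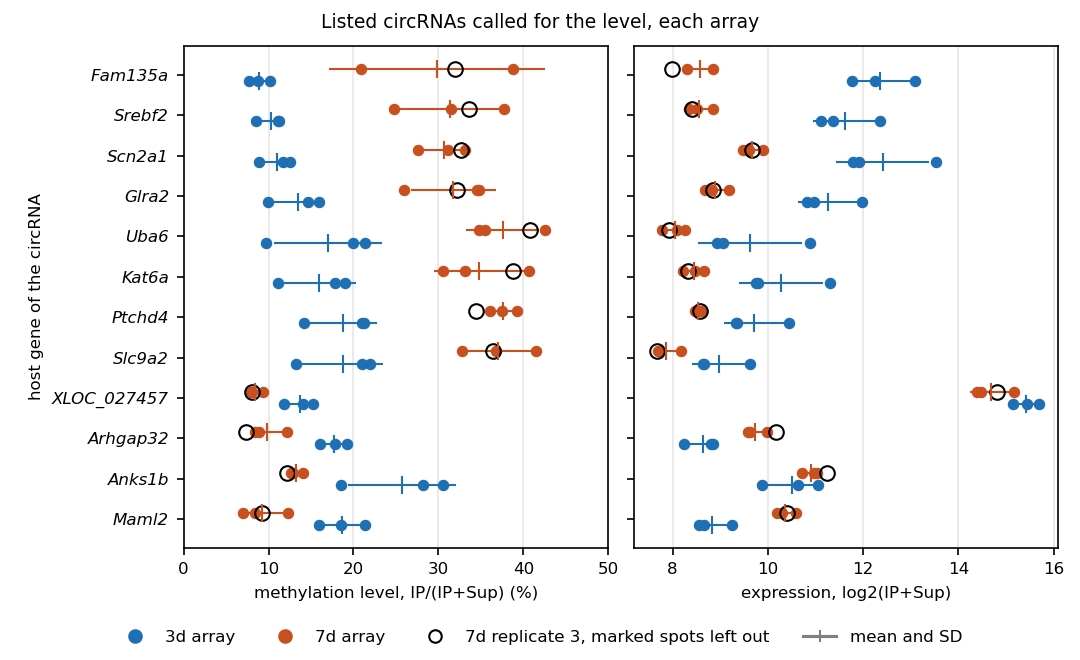
m6A level (left, percent) and expression (right, log2) on each array for the 12 listed circRNAs called for the level, with mean and SD of the 3d and 7d arrays and 7d replicate 3 with marked spots left out as open circles. The circRNA of Srebf2 lies at 8.54% to 11.2% at 3d and at 24.8% to 37.7% at 7d, and that of Anks1b at 18.5% to 30.5% and at 12.6% to 14.1%.

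The remaining hypomethylated circRNAs of the list were not called with all spots on the 10 spike-in probes. Bmper encodes a secreted protein that binds bone morphogenetic proteins. Its circRNA (mmu_circRNA_43882, chromosome 9) had 5.61%, 6.78% and 8.79% at 3d and 4.31% and 7.32% on 7d replicates 2 and 3, with the spot of 7d replicate 1 left out as an outlier. Its log2 change of -0.31 became -0.69 with 4.29% for 7d replicate 3 when marked spots were left out, which was called (adjusted p = 0.0142). It was also called with each channel centered on its median circRNA (-0.65), with all spike-in probes (-0.66), with no background correction (-0.93), with processed signals (-1.29) and in the deposited values (-1.23). The change was -0.69 without 7d replicate 3 and 0.077 without 7d replicate 2. Either omission leaves 1 array at 7d, assumed to vary as much as the 3d arrays, so neither is taken as a call. Mtmr12, of the myotubularin family, had a circRNA level (mmu_circRNA_28255) of 28.9% ± 7.32 (SD, n = 3) at 7d and 28.6% ± 3.19 (SD, n = 3) at 3d, while in the deposited values it was called, with a log2 change of -1.33. Its IP signal was well above background on 1 array at 7d and on 2 at 3d, so that change rests partly on background. The circRNAs of Arid2, a subunit of a chromatin remodelling complex, and of Ptp4a2, a phosphatase, gave IP signals that were well above background on all 3d arrays but on none of the 7d arrays, so no fold is given. That of Arid2 was called hypomethylated in the deposited values, where its 7d levels rest on those signals. Those of Pcgf5 and Tsc2 were not tested for want of signal.

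The largest decreases of expression taken by rule were of probes that no file names. Their adjusted p-values with all spots also rest on the shared spread. Probe ASCRP4005148 had an expression of 12.6, 12.1 and 13.7 at 3d and of 8.87, 9.34 and 8.43 at 7d, a 15.01-fold decrease (adjusted p = 8.88e-15; 15.7-fold and 0.00445 with marked spots left out). Probe ASCRP4011427 had 13.3, 13.3 and 15.3 at 3d and 10.1, 10.7 and 9.75 at 7d, 14.1-fold lower (adjusted p = 2.42e-13; 13.4-fold and 0.00715 with marked spots left out), and its log2 change of -3.82 was -3.14 without 3d replicate 3. The level of the first probe was 8.84%, 10.9% and 8.21% at 3d and 20.5%, 16.3% and 34.7% at 7d (25.0% for 7d replicate 3 with marked spots left out), and it was hypermethylated. That of the second was 7.96%, 8.43% and 9.03% at 3d and 17.6%, 13.6% and 18.8% at 7d (16.1% for 7d replicate 3 with marked spots left out), hypermethylated at 1.948-fold but not in the deposited values, at 1.38-fold.

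A further 36 probes came from the lists for 3d or 7d against sham, comparisons that share the 3d and 7d arrays used here. They were chosen for a higher or lower level on these arrays, so their direction at 7d against 3d is no independent evidence. Of the 31 tested, 3 were hypermethylated at 7d against 3d and 2 hypomethylated, beside 4.07% and 0.127% of all tested circRNAs. With marked spots left out both counts were 2, and in the deposited values 14 and 9 of 28 were called, beside 24.6% and 2.1% of all circRNAs there. Of these 9 hypomethylated circRNAs, those of Cdk8 and Appl1 had no IP signal well above background at 7d, so their levels there rest on background. The median log2 change of the level over the 31 was 0.21, beside 0.19 over all tested circRNAs. No gene group below was tested against the shares over all circRNAs.

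Of the circRNAs from genes of channels, transporters and synapse on these lists, 3 of 4 were tested and 2 were hypomethylated, in the deposited values as well. These 2, of Rims1 and Calm3, had been listed for a higher level at 3d than in sham. With the list for 7d against 3d included, 8 of this group were tested, 3 hyper- and 4 hypomethylated. Rims1 encodes a protein of the presynaptic active zone. Its circRNA (mmu_circRNA_007113) had 14.5%, 11.5% and 11.5% at 3d and 7.92%, 8.28% and 7.77% at 7d, 1.56-fold lower (adjusted p = 0.0129; 6.50% for 7d replicate 3 and 1.65-fold with marked spots left out), and its log2 change of -0.64 was -0.53 and not called without 3d replicate 1. Calm3 encodes calmodulin, the calcium sensor. Its circRNA (mmu_circRNA_19450) had 19.4%, 17.8% and 18.8% at 3d and 11.5%, 14.7% and 11.03% at 7d, 1.52-fold lower (adjusted p = 0.015; 10.7% for 7d replicate 3 and 1.54-fold with marked spots left out). Its log2 change of -0.60 was -0.57 without 3d replicate 1, -0.55 without 7d replicate 1, -0.52 without 7d replicate 3 and -0.52 with the slide column as a block, none of which was called. The circRNA of Dtnb, a dystrobrevin, had 5.97% ± 0.862 (SD, n = 3) at 7d and 6.22% ± 1.46 (SD, n = 3) at 3d and was not called, but its log2 change of -0.045 was -0.77 and called with within-array loess.

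Among regulators of transcription and chromatin, 3 of 4 were tested and 0 were called, while in the deposited values 1 was hyper- and 2 were hypomethylated, Cdk8 among the latter with its 7d IP signal at background. Malat1 is a long nuclear non-coding RNA, and its intronic circRNA (mmu_circRNA_009696) had levels of 76.6%, 64.8% and 58.6% at 3d and 50.4%, 53.1% and 35.3% at 7d (35.5% for 7d replicate 3 with marked spots left out). The groups did not overlap, but the 1.45-fold difference lay under the threshold (adjusted p = 0.0486), and it was past it with each channel centered on its median circRNA, at a log2 change of -0.69, with within-array loess, at -0.60, in the deposited values, at -0.81, without 7d replicate 1, at -0.61, without 7d replicate 2, at -0.65, and without 3d replicate 3, at -0.63, but fell to -0.36 without 7d replicate 3. Creb3l3 encodes a transcription factor bound to membranes, and its circRNA (mmu_circRNA_22281) had 40.5% ± 3.21 (SD, n = 3) at 7d and 32.0% ± 4.85 (SD, n = 3) at 3d.

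All 3 circRNAs from genes of protein degradation were tested and 0 were called for the level, while in the deposited values 1 of 2, that of Nln, was hypomethylated. That of Mid1, a ubiquitin ligase (mmu_circRNA_45982), had 20.3%, 20.4% and 22.7% at 3d and 32.1%, 20.6% and 38.0% at 7d, 28.3% with marked spots left out. Without 7d replicate 2 it was called, at a log2 change of 0.73 against 0.48, and the lowest change without 1 array was 0.29. Psme4 encodes an activator of the proteasome, and its circRNA (mmu_circRNA_23150) had 38.2% ± 4.23 (SD, n = 3) at 7d and 31.9% ± 1.14 (SD, n = 3) at 3d, and its log2 change of 0.25 was called at 0.60 without the offset and at 0.83 with processed signals. The circRNA of Nln, a peptidase (mmu_circRNA_018245), had 32.3% ± 5.91 (SD, n = 3) at 7d and 29.98% ± 1.55 (SD, n = 3) at 3d, a log2 change of 0.095 that turned to -0.061 with marked spots left out and to -1.11, a call, in the deposited values.

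Of 8 circRNAs from genes of endocytosis and membrane traffic, 6 were tested and 1 was called. Bmp2k encodes a kinase of clathrin-coated vesicles. Its circRNA (mmu_circRNA_39011) had 25.0%, 24.8% and 10.0% at 3d and 45.0%, 37.2% and 36.3% at 7d, 2.136-fold higher with all spots and 2.137-fold with marked spots left out (adjusted p = 0.0414). On 3d replicate 3 its level was lowest and its expression, at 12.96, far above the 9.97 and 10.2 of the other 3d arrays. Its log2 change of 1.095 was 0.66 without 3d replicate 3, and 0.54 and not called with within-array loess. The circRNA of Dopey1, a gene of Golgi traffic, had 39.3% ± 4.004 (SD, n = 3) at 7d and 28.3% ± 4.99 (SD, n = 3) at 3d, and that of Tbc1d19 had 38.8% ± 3.53 (SD, n = 3) at 7d and 29.5% ± 0.903 (SD, n = 3) at 3d. Neither passed the fold threshold, and in the deposited values 3 of the 6 were hyper- and 1, Appl1, was hypomethylated with its 7d IP signal at background.

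The 3 circRNAs from genes of the cytoskeleton and cilium included 1 call, and 2 were hypermethylated in the deposited values. Ofd1 encodes a protein of centrioles and the base of cilia. Its circRNA (mmu_circRNA_45969) had 29.8%, 28.6% and 14.8% at 3d and 38.0%, 37.4% and 42.9% at 7d, 1.69-fold higher and past the unadjusted threshold alone (adjusted p = 0.0535), with 38.6% for 7d replicate 3 and a fold of 1.64 when marked spots were left out. Its log2 change of 0.76 was not called at 0.55 with each channel centered on its median circRNA, 0.42 with all spike-in probes, 0.33 with within-array loess, 0.57 with no scaling, 0.37 with the slide column as a block, 0.43 without 3d replicate 3 and 0.695 without 7d replicate 3. The circRNA of Cfap69, another ciliary gene, had 37.1% ± 4.48 (SD, n = 3) at 7d and 25.6% ± 1.59 (SD, n = 3) at 3d, under the fold threshold at 1.44 but past it without 7d replicate 2, at a log2 change of 0.59, in the deposited values, at 1.08, without the offset, at 1.15, and with processed signals, at 1.07. Clasp1 encodes a protein of microtubule ends, and its circRNA (mmu_circRNA_20673) had 34.4% ± 5.52 (SD, n = 3) at 7d and 35.0% ± 0.702 (SD, n = 3) at 3d. With marked spots left out it had 31.8% ± 1.31 (SD, n = 3) at 7d and 35.0% ± 0.711 (SD, n = 3) at 3d. Its log2 change was -0.14 there and -0.57 in the deposited values, and neither was called.

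Of 7 circRNAs from genes of RNA and translation, 6 were tested and 0 were called, with 3 hyper- and 2 hypomethylated of 5 in the deposited values. That of Mtrf1, a mitochondrial release factor, had 39.6% ± 3.438 (SD, n = 3) at 7d and 26.8% ± 3.82 (SD, n = 3) at 3d, 1.48-fold. It was past the fold threshold without 3d replicate 1, 3d replicate 2 or 7d replicate 2, at log2 changes of 0.66, 0.60 and 0.64. It was also called at 0.63 with no background correction, 0.95 without the offset, 1.17 with processed signals and 1.18 in the deposited values. That of Mrps9, a subunit of the mitochondrial ribosome, had 39.0% ± 4.53 (SD, n = 3) at 7d and 27.8% ± 1.80 (SD, n = 3) at 3d. Its log2 change of 0.48 was called at 1.17 without the offset, 1.24 with processed signals and 1.25 in the deposited values. The probe of Rn45s, the ribosomal RNA precursor, had 9.54% ± 0.858 (SD, n = 3) at 7d and 12.3% ± 1.02 (SD, n = 3) at 3d, with an expression of 16.6 to 16.99 on the 6 arrays. Its log2 change of the level, -0.37, was called at -0.64 with each channel centered on its median circRNA, -0.67 with all spike-in probes and -1.32 with within-array loess.

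The 7 circRNAs of other genes included 1 call, that of Itgbl1, a secreted protein with integrin-like repeats. Its circRNA (mmu_circRNA_28128) had 10.96%, 14.9% and 17.7% at 3d and 18.9%, 16.5% and 32.2% at 7d, overlapping groups with a 1.52-fold difference (adjusted p = 0.11). The call rested on single arrays, on the background model and on the scaling, since the log2 change of 0.60 was 0.47 and not called with marked spots left out, 0.31 without 7d replicate 3, and 0.41 without 3d replicate 1, and the call was also lost without 3d replicate 2, at 0.635. It was lost as well at 0.37 with each channel centered on its median circRNA, 0.26 with all spike-in probes, 0.18 with within-array loess, 0.44 with no scaling and 0.47 with the slide column as a block. The circRNA of Acly, the enzyme that makes cytosolic acetyl-CoA, had 33.5% ± 6.85 (SD, n = 3) at 7d and 25.0% ± 6.73 (SD, n = 3) at 3d. It was called without 3d replicate 1 at a log2 change of 0.64 against 0.44, and the lowest change without 1 array was 0.26. That of DQ715306 had 9.80% ± 1.05 (SD, n = 3) at 7d and 13.9% ± 1.74 (SD, n = 3) at 3d, and its log2 change of -0.50 was called at -0.76 with each channel centered on its median circRNA, -0.78 with all spike-in probes and -1.19 with within-array loess. In the deposited values 5 of 6 in this group were hyper- and 1 was hypomethylated.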

How the data were processed

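Each of the 18 samples is 1 channel of a 2-colour array. Per the file headers, spots were read with Agilent Feature Extraction 11.0.1.1 as median pixel intensity. The deposited table holds log2 values of 12251 circRNA probes, which the authors made from processed signals by subtracting a spike-in constant for each channel. The spike-in probes behind those constants, 10 of 102, were recovered to within 5.6e-10. Scanner values were background-corrected with normexp (offset 50, all spots), outlier spots were left out, and each channel was shifted to a common mean of the 10 probes. Probes starting ASCRP whose IP and Sup signals were both well above background on 3 or more of 6 arrays were tested two-sided with limma 3.58.1 in R 4.3.3 on log2 IP/(IP+Sup) and log2(IP+Sup), and called at a fold above 1.5 and P below 0.05. Adjusted p-values are Benjamini-Hochberg over 11834 probes (11783 in the deposited values), and array medians were compared by an exact permutation test. Singly described circRNAs were the 2 largest changes in each direction, among calls with adjusted p below 0.05, all 6 arrays measured and no overlap of the groups, and well above background in both channels on 2 or more arrays of each group (414 hyper-, 11 hypomethylated, 9 higher and 437 lower circRNAs qualified), and those listed by the study, joined where its printed fold and P matched 1 probe (60 of 60 names, 55 probes, tolerance 1e-04 for the fold). Those of lists against sham are given by group of host gene, with up to 3 examples of largest change. The members and lists were chosen with earlier results of these data known. Leaving out marked spots was added after the counts under both background models and under the other settings had been seen, and the planned model was kept. No coordinates or probe sequences are printed, since no file pairs them with the probes. The limma fit was tried on simulated data with independent noise for each probe. These held no shift of an array or channel, so they do not bear on the scaling.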

Additional observations from a re-analysis of the deposited data

How the results depend on the processing

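Of 50 single changes of the level or of expression, 31 were called, and 20 of these kept direction and call under every alternative, not counting the 2 of Fam135a, which has 2 arrays at 7d. The counts moved, and the cause was not tested. Hypermethylated and hypomethylated counts (482 and 15) were 1183 and 43 without the normexp offset (none past the adjustment by limma; 750 and 698 with marked spots left out), 429 and 114 with no background correction, and 2843 and 260 with processed signals. They were 119 and 137, 56 and 153, and 27 and 226 with channels centered, all spike-in probes and within-array loess, and 169 and 42 with the slide column as a block (replicate 3 of each stage is alone in its column there and adds nothing). Chosen after seeing the data were no scaling (143 and 26; 115 and 76 with marked spots left out), processed signals on all spike-in probes (37 and 2014), deposited values centered (284 and 1304, against 2900 and 252 as deposited), and marked spots left out (394 and 50), also with channels centered (185 and 181), all spike-in probes (49 and 353) or loess (21 and 441). Repeating every setting without marked spots gave 21 to 2900 and 35 to 2015. Leaving out 1 array gave 243 to 713 and 11 to 35.

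Higher and lower expression counts (80 and 959) were 164 and 604 with all spike-in probes, 325 and 234 with quantile normalization, 156 and 1165 with no background correction, 243 and 3090 with processed signals (1142 and 639 on all spike-in probes), and 263 and 2958 as deposited (1245 and 988 centered). They were 96 and 465 with no scaling, 12 and 778 with the slide column as a block, 10 and 465 after adjustment, 44 and 500 with the methods' t-test, and, with marked spots left out, 282 and 512 centered, 338 and 391 on all spike-in probes and 359 and 251 by quantile. Leaving out 1 array gave 18 to 186 and 643 to 1055. The replicate block gave 488 and 15 for the level and 80 and 965 for expression, and correlations of array deviations across probes at equal replicate numbers were 0.13, 0.26 and 0.33 for the level and -0.54, -0.14 and -0.41 for expression (with marked spots left out, -0.0095, 0.039 and 0.047, and -0.39, 0.011 and -0.22). Titles and descriptions differ on the numbers of some replicates, so no pairing was used.

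The difference of median levels (5.33 points) turned to -0.936 with all spike-in probes and -3.50 with processed signals on all spike-in probes. With marked spots left out and all spike-in probes it was -1.97. Loess sets it near 0 by construction (-0.15, and -0.20 with marked spots left out), which is no turn of direction. The difference of median expression (0.021) turned to -0.17 with no background correction, -0.33 with processed signals and -0.32 as deposited. It was -0.033 with probes well above background on all 6 arrays and -0.13 with marked spots left out. Without 1 array it lay between -0.19 and 0.15. Centering sets it near 0 by construction (-0.0013), which is no turn of direction. Expression of XLOC_027457 turned to 0.11 with quantile normalization (0.097 with marked spots left out as well), 0.26 with processed signals on all spike-in probes and 0.18 with deposited values centered. The level of Itgbl1 turned to -0.029 with processed signals on all spike-in probes. Among changes not called, Nln turned to -0.11 centered, -0.14 with all spike-in probes, -0.065 with loess, -0.21 with no background correction, -0.040 without the offset, -1.12 and -1.11 with processed and deposited values, -0.033 with the slide column, -1.73 with processed signals on all spike-in probes, -1.59 deposited and centered, and, with marked spots left out, -0.061, -0.19 centered, -0.27 on all spike-in probes and -0.14 with loess. Mid1 turned to -0.27 with processed signals on all spike-in probes and -0.046 deposited and centered, Psme4 to -0.028 with marked spots left out and all spike-in probes, and, with the slide column as a block, Dtnb to 0.12 and expression of Mtmr12 to -0.019. Without 1 array, Nln lay between -0.050 and 0.18, Clasp1 between -0.17 and 0.039, Dtnb between -0.15 and 0.14, Bmper between -0.69 and 0.077 and Mtmr12 between -0.21 and 0.11.

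The median IP spot was 2 to 2.381 times its background, which limits the levels of dim circRNAs, and 3 arrays a group, of which each carries weight, limit every test. Stage and slide row cannot be told apart. Levels rest on the probes that set the scale of each channel, and cell type makeup was not measured.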
